A study of Mus musculus with 2 samples.

Results

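Cell cycle genes were followed as 1 module of 37 members in single cells of the aneurysmal mouse aorta. The members were given as a list of symbols, and each matched exactly 1 of the 31253 features. They comprise 11 S phase genes (Mcm2, Mcm3, Mcm4, Mcm5, Mcm6, Mcm7, Pcna, Rrm1, Rrm2, Tyms and Ccne2), 23 G2/M genes (Mki67, Top2a, Cdk1, Ccnb1, Ccnb2, Ccna2, Birc5, Ube2c, Cenpf, Tpx2, Aurka, Aurkb, Plk1, Bub1, Bub1b, Kif11, Kif23, Nusap1, Cdc20, Cenpe, Cenpa, Cdca3 and Cdca8) and 3 genes kept apart because they are also known outside division (Hmgb2, Stmn1 and Pttg1). Of the 2 libraries, 1 came from the abdominal aorta of mice with a global deletion of Gsdme, the gene of the pore-forming protein gasdermin E (Gsdme-KO), and 1 from that of C57BL/6J control mice (WT). Both groups had received porcine pancreatic elastase (PPE), an elastin-degrading enzyme infused to produce an abdominal aortic aneurysm, so neither library shows an untreated aorta. The age and sex of the mice, the time after PPE, the number of mice behind a library and the background strain of the deletion are not stated in the labels.

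A dividing cell copies its DNA in S phase and then, after a gap called G2, separates the copies in mitosis (M). E2F transcription factors switch on the S phase genes, among them the MCM helicase that unwinds DNA, the sliding clamp PCNA and the enzymes that make nucleotides. Later the MuvB complex with B-MYB and FOXM1 switches on the G2/M genes through a short promoter element called CHR. Promoters of such genes often also hold CCAAT boxes, which are bound by another factor. Most cells of a healthy adult aorta divide rarely, while fibroblasts and macrophages are known to divide in injured arteries.

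Each level below is a sum of unique molecular identifiers (UMIs, 1 per captured transcript) over cells, as counts per 1e+06 UMIs of the same cells (CPM). The Gsdme-KO library had 8784 cells kept, with a median of 4062 UMIs, and the WT library 7619 cells with a median of 3835 UMIs. The deleted gene stood at 2.55 CPM in the library labelled Gsdme-KO and 5.53 CPM in WT (the labels do not say which part of it was deleted). The libraries shared 73 cell barcodes. Cells fell into 26 clusters, built without cell cycle genes and named from marker genes, and 14 named clusters with at least 100 cells in each library were compared by number. Levels and shares were not compared over merged classes, since fibroblast cluster 0 had the pericyte marker Abcc9 among its 10 leading genes. Neither fibroblast cluster had a fibroblast marker of the list among these genes, but both held 8 in at least 25% of their cells. The libraries also held the most macrophages in different clusters (12 in Gsdme-KO, 5 in WT). With 1 library per group there is no test and no p-value. After a pair of levels, brackets give the ratio of Gsdme-KO over WT and its exact 95% interval, and after a share or ratio its exact interval. These intervals cover counting error only. The UMIs of 1 cell are not independent draws, so intervals of CPM and of CPM ratios are too narrow where few cells carry a gene.

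The G2/M genes Cdk1, Ube2c and Top2a differed widely between the libraries in fibroblast cluster 1. Over all cells Cdk1 and Top2a had ratios of only 1.09 (0.989 to 1.21) and 1.07 (1.02 to 1.13). Promoter sequences shown for these 3 and, as a contrast, 1 S phase gene run from 150 bases before to 20 after the RefSeq start. They are from RefSeq in build GRCm38.p6 (mm10), with Cdk1 at chr10:69352893-69353062 (minus strand), Ube2c at chr2:164769779-164769948 (plus strand), Top2a at chr11:99024170-99024339 (minus strand) and Mcm6 at chr1:128359686-128359855 (minus strand). Capitals mark matches, on either strand, of CCAAT, of the CHR letters TTTGAA or TTTAAA, and of the E2F letters TTTGGCGC, TTTCCCGC or TTTCGCGC.
Cdk1: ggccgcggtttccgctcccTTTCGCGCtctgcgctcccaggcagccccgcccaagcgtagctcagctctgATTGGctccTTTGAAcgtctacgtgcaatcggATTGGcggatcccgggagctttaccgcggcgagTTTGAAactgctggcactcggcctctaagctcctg
Ube2c: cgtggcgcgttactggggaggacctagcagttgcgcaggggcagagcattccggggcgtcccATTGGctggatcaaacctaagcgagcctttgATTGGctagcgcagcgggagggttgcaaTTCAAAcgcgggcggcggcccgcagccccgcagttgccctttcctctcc
Top2a: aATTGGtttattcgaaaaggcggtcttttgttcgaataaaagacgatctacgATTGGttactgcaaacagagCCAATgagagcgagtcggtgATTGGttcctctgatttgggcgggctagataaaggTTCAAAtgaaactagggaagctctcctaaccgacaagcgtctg
Mcm6: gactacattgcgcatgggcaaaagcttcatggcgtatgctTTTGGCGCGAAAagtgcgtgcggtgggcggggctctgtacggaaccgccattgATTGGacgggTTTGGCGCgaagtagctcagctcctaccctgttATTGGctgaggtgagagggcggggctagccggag
In Mcm6 the first run of capitals holds overlapping matches of TTTGGCGC and, on the other strand, TTTCGCGC. From 250 bases before to 50 bases after the start, 18 of the 20 G2/M genes found in the promoter table held CHR letters, against 3 of 9 S phase genes and 27.8% of all 27025 genes. E2F letters were present in 1 of these G2/M genes (Cdk1), in 4 of the S phase genes and in 1.91% of all genes. CCAAT was present in 18 of the G2/M genes, in 8 of the S phase genes and in 37.9% of all genes. For 4 of the 31 members in the table (Cdca3, Cdca8, Mcm7 and Pttg1) the whole window lies inside the gene span of the files, so the start of that span was not searched. A match describes letters and is not a measured binding site.

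Summed over all kept cells, both lists stood at nearly equal levels. The 23 G2/M genes together had 419.6 CPM in Gsdme-KO and 411 CPM in WT (1.02, 1.00 to 1.04), and the 11 S phase genes 388 CPM in Gsdme-KO and 409 CPM in WT (0.947, 0.927 to 0.967). Of the 37 members 2 were at least 1.5-fold higher in Gsdme-KO, where 7.73% of all measured features were, and 0 were at least 1.5-fold lower, against 8.12% of features. Ube2c, which encodes the ubiquitin-conjugating enzyme of the anaphase-promoting complex, had 24.9 CPM in Gsdme-KO and 13.6 CPM in WT (1.82, 1.65 to 2.02). Pttg1, which encodes securin, the inhibitor of separase that guards sister chromatids until anaphase, had 44.1 CPM in Gsdme-KO and 28.8 CPM in WT (1.53, 1.42 to 1.64). Mki67, the gene of the proliferation antigen Ki-67, was the most abundant G2/M member in both libraries, at 100.4 CPM in Gsdme-KO and 127 CPM in WT (0.793, 0.762 to 0.824). Without Mki67 the ratio of the G2/M sum was 1.12. Among the S phase genes Tyms, which makes thymidylate, and Ccne2, a cyclin of S phase entry, had the highest ratios, 1.33 (1.12 to 1.58) and 1.35 (1.09 to 1.67), and the helicase subunits Mcm6, Mcm7 and Mcm3 the lowest, 0.798 (0.739 to 0.863), 0.810 (0.694 to 0.947) and 0.810 (0.744 to 0.883). The annotated spans of 7 members (Mcm7, Ccne2, Ccna2, Ube2c, Nusap1, Cdc20 and Cdca8) overlap another gene on the opposite strand. The labels do not say whether the counting used strand, so their reads are uncertain to that extent.

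The members differed in how many cells carried them. The 1% of cells with the most UMIs of a gene held 100% in Gsdme-KO and 100% in WT of the UMIs of Plk1, a mitotic kinase. They held 89.3% in Gsdme-KO and 92.9% in WT for Ccnb1 (cyclin B1, the partner of CDK1 at entry into mitosis) and 84.1% in Gsdme-KO and 90.6% in WT for the kinetochore gene Cenpf. For Pcna they held 12.6% in Gsdme-KO and 12.2% in WT, and for Hmgb2, a chromatin protein, 16.1% in Gsdme-KO and 15.9% in WT. For Pttg1 the share was 12.9% in Gsdme-KO and 23.9% in WT. It was above 50% in both libraries for every G2/M gene except Mki67 and Cenpa, whereas a UMI of Pcna was seen in 49.3% of Gsdme-KO cells and 49.2% of WT cells. Plk1 was seen in 0.774% of Gsdme-KO cells and 0.683% of WT cells, so its 100% followed from its low count. Aurka, with 122 UMIs in 100 Gsdme-KO cells, still reached 89.3%. These shares therefore do not separate low abundance from UMIs gathered in few cells.

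Behind the nearly equal totals, single clusters differed in opposite directions. The G2/M ratio ran between 0.519 and 7.34 over the 14 clusters, with an interval above 1 in 7 and below 1 in 5. The UMIs of 1 cell are not independent, so these counts do not say how many clusters differ beyond counting error. It was highest in fibroblast cluster 1, led by Sema3c and Cd55, with 359.9 CPM in Gsdme-KO and 49.0 CPM in WT (7.34, 6.32 to 8.57). With cell cycle genes kept in the clustering its ratio was 3.44, and at Leiden resolution 0.5, where both fibroblast clusters matched 1 larger cluster, 3.12. Fibroblast cluster 0, led by Sfrp1 and C7, had 293 CPM in Gsdme-KO and 138 CPM in WT (2.13, 1.96 to 2.32), and at Leiden resolution 2 its ratio was 1.42. Macrophage cluster 12, led by the resident-macrophage genes Lyve1 and Folr2, had 382 CPM in Gsdme-KO and 189 CPM in WT (2.02, 1.88 to 2.16), and macrophage cluster 17, led by Lyz1, Ear2 and Retnla, had 882 CPM in Gsdme-KO and 455 CPM in WT (1.94, 1.75 to 2.14). With cell cycle genes kept in the clustering the ratio of cluster 17 was 1.04. Macrophage cluster 4, led by Gpnmb, Trem2 and Spp1, went the other way with 627 CPM in Gsdme-KO and 978 CPM in WT (0.641, 0.611 to 0.672). B cells had 439 CPM in Gsdme-KO and 847 CPM in WT (0.519, 0.446 to 0.602), T cells 535 CPM in Gsdme-KO and 776 CPM in WT (0.689, 0.612 to 0.775) and endothelial cells 539 CPM in Gsdme-KO and 708 CPM in WT (0.761, 0.672 to 0.862), all lower in Gsdme-KO. These sums rested on few cells. At least 10 of the 23 genes were seen in 1 Gsdme-KO and 4 WT B cells. For T cells these were 2 Gsdme-KO and 6 WT cells, and for endothelial cells 6 Gsdme-KO and 5 WT cells. In the 5 unnamed clusters with at least 100 cells in each library the ratio of the G2/M sum ran between 0.374 and 1.82. Smooth muscle cells, the main cells of the aortic media, numbered 177 in Gsdme-KO and 64 in WT, too few to compare, and had 549 CPM in Gsdme-KO and 550.2 CPM in WT. In sums over cells fewer dividing cells and less RNA per dividing cell cannot be told apart, and the shares of cells below separate them in part.

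**Figure D1:**
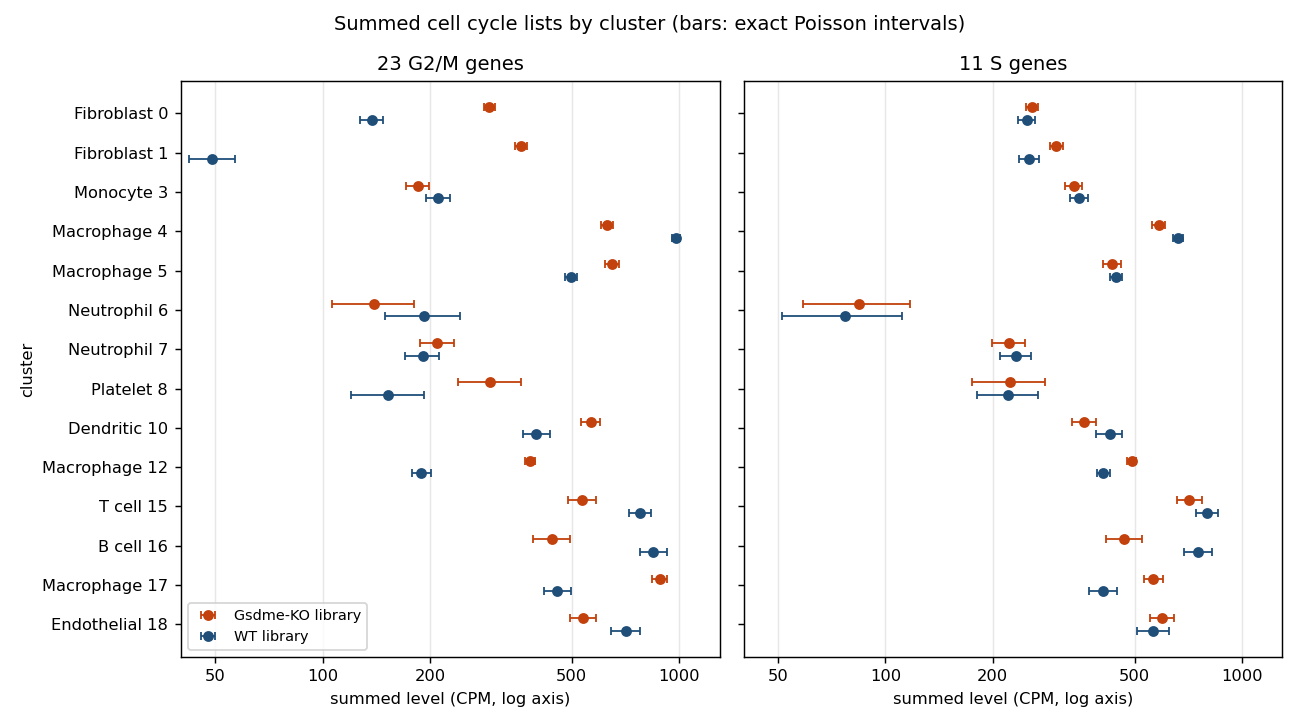
Summed CPM (log axis) of the 23 G2/M genes (left) and the 11 S genes (right) in 14 clusters of the Gsdme-KO library (orange) and the WT library (blue), with exact Poisson intervals. The G2/M points lie farthest apart in fibroblast cluster 1 (359.9 CPM in Gsdme-KO and 49.0 CPM in WT), while the S points of the same cluster lie closer together.

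To compare cells at equal depth, each cell was thinned to 1000 UMIs and called G2/M-positive when at least 2 of the 23 G2/M genes were left. Over all cells 232 of 7353 Gsdme-KO cells (3.16%, 2.77 to 3.58) and 191 of 6501 WT cells (2.94%, 2.54 to 3.38) were positive, a ratio of 1.07 (0.883 to 1.31). This leaves out 1431 Gsdme-KO and 1118 WT cells of under 1000 UMIs, and without thinning the shares were 11.6% in Gsdme-KO and 10.8% in WT. Mature neutrophils do not divide and gave the background. In neutrophil cluster 6 the count was 0 of 216 Gsdme-KO cells, where the exact interval reaches 1.69%, and 0 of 179 WT cells, where it reaches 2.04%. In neutrophil cluster 7 it was 4 of 821 Gsdme-KO cells (0.487%, 0.133 to 1.24) and 8 of 863 WT cells (0.927%, 0.401 to 1.82), at median depths before thinning of 1606.5 UMIs in Gsdme-KO and 1677 in WT.

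In fibroblast cluster 1, 23 of 683 Gsdme-KO cells (3.37%, 2.15 to 5.01) and 1 of 374 WT cells (0.267%, 0.00677 to 1.48) were positive, a ratio of 12.6 (2.05 to 519). In fibroblast cluster 0, 18 of 859 Gsdme-KO cells (2.10%, 1.25 to 3.29) and 3 of 576 WT cells (0.521%, 0.108 to 1.51) were positive, a ratio of 4.02 (1.17 to 21.3). At Leiden resolution 2, which splits the clusters further, the share ratio of the cluster most like fibroblast cluster 0 was 1.02, and without thinning the ratios were 1.805 in cluster 1 and 1.45 in cluster 0. Both WT shares were below the WT share of neutrophil cluster 7. Before thinning, however, 3 WT cells of fibroblast cluster 0 and 1 of cluster 1 held at least 10 of the 23 genes, and no neutrophil of cluster 7 held more than 3. Median depths before thinning were 10314.5 UMIs in Gsdme-KO and 9365 in WT for cluster 1 and 10024.5 UMIs in Gsdme-KO and 8036.5 in WT for cluster 0. In macrophage cluster 12 the count was 35 of 1090 Gsdme-KO cells (3.21%, 2.25 to 4.44) and 9 of 696 WT cells (1.29%, 0.593 to 2.44), a ratio of 2.48 (1.17 to 5.87), which was 1.195 with cell cycle genes kept in the clustering. In macrophage cluster 4 it was 23 of 533 Gsdme-KO cells (4.32%, 2.75 to 6.40) and 62 of 707 WT cells (8.77%, 6.79 to 11.1), a ratio of 0.492 (0.291 to 0.806), which was 1.06 with cell cycle genes kept in the clustering. In macrophage cluster 5, with Ngp, Cd72 and Slamf9 among its leading genes, the shares were 4.28% in Gsdme-KO and 4.33% in WT. Of its positive cells 94.1% in Gsdme-KO and 94.3% in WT carried at least 3 macrophage markers. Ngp also led a neutrophil cluster of 11 Gsdme-KO and 23 WT cells at Leiden resolution 2. Whether cluster 5 holds such cells was not tested. Endothelial cells had the highest share of the 14 clusters in both libraries, with 11 of 110 Gsdme-KO cells (10%, 5.10 to 17.2) and 9 of 89 WT cells (10.1%, 4.73 to 18.3). Their share ratio was 0.989 (0.373 to 2.70), so a lower share was not detectable beside their lower G2/M sum.

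**Figure D2:**
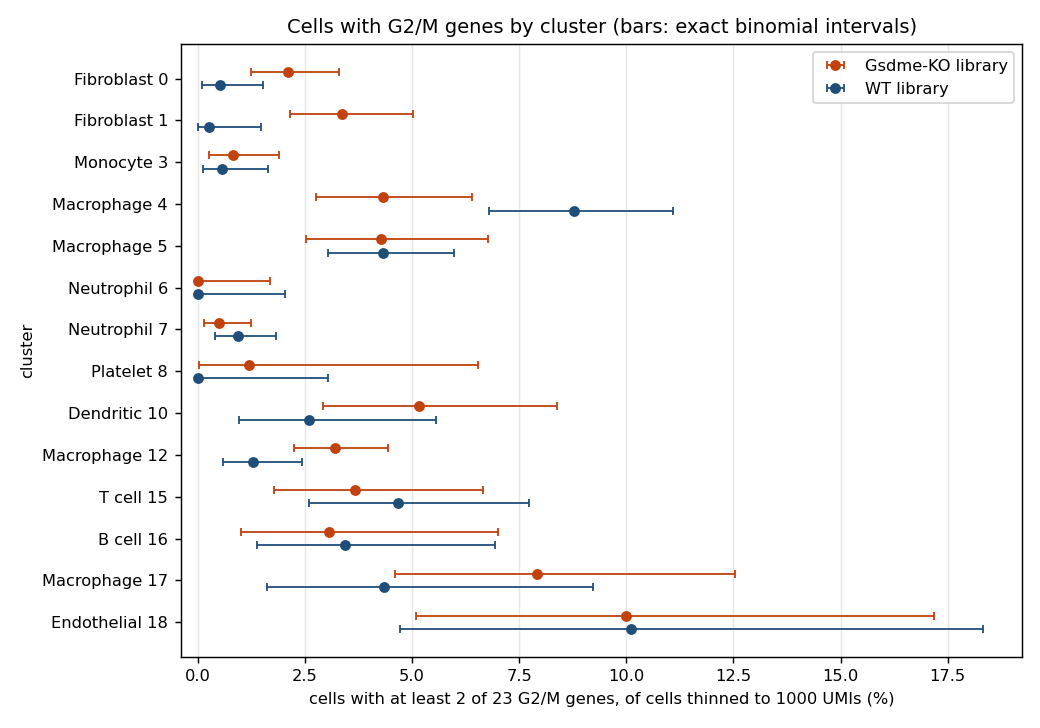
Share of cells thinned to 1000 UMIs that kept at least 2 of the 23 G2/M genes, by cluster, in the Gsdme-KO library (orange) and the WT library (blue), with exact binomial intervals. Both fibroblast clusters and macrophage cluster 12 lie higher in Gsdme-KO, macrophage cluster 4 lies higher in WT (4.32% in Gsdme-KO and 8.77% in WT), and both neutrophil clusters lie below 1%.

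The G2/M-positive cells came from the clusters in different shares, as did all cells of the libraries. Fibroblast cluster 1 held 9.91% of the 232 positive cells in Gsdme-KO (6.39 to 14.5) and 0.524% of the 191 in WT (0.0133 to 2.88), and 9.29% in Gsdme-KO and 5.75% in WT of all thinned cells. Fibroblast cluster 0 held 7.76% of the 232 positive cells in Gsdme-KO (4.66 to 11.98) and 1.57% of the 191 in WT (0.325 to 4.52), and 11.7% in Gsdme-KO and 8.86% in WT of all thinned cells. Macrophage cluster 12 held 15.1% of the 232 positive cells in Gsdme-KO (10.7 to 20.4) and 4.71% of the 191 in WT (2.18 to 8.76), and 14.8% in Gsdme-KO and 10.7% in WT of all thinned cells. Macrophage cluster 4 held 9.91% of the 232 positive cells in Gsdme-KO (6.39 to 14.5) and 32.5% of the 191 in WT (25.9 to 39.6), and 7.25% in Gsdme-KO and 10.9% in WT of all thinned cells. In Gsdme-KO the share of all thinned cells lay inside the interval of the share of positive cells in each of these clusters. In WT it lay outside in each. There both fibroblast clusters and macrophage cluster 12 held smaller shares of the positive cells than of all cells, and macrophage cluster 4 held a larger one. Among the positive cells 4 in Gsdme-KO and 2 in WT carried a barcode found in both libraries. A plasma cell cluster, too small to be compared, had 18 of 37 Gsdme-KO cells (48.6%, 31.9 to 65.6) and 1 of 16 WT cells (6.25%, 0.158 to 30.2) positive. Of its 18 positive Gsdme-KO cells 5.56% were in the top 5% of doublet scores. Of its cells that were not positive 10.5% in Gsdme-KO and 86.7% in WT were, and the part of doublets in this result was not tested.

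In fibroblast cluster 1 the G2/M genes stood higher in Gsdme-KO throughout the mitotic machinery. Of the 23 G2/M members 21 reached 30 UMIs in both libraries together, and 21 were at least 1.5-fold higher, where 6.69% of all measured features were. Some members reached that minimum through the Gsdme-KO library alone, so this count, like those of the other clusters and lists, only describes these libraries. Top2a, the topoisomerase that untangles DNA, had 68.3 CPM in Gsdme-KO and 3.75 CPM in WT (18.2, 10.8 to 33.5). Among the drivers of mitosis Cdk1, the central mitotic kinase, had 22.2 CPM in Gsdme-KO and 1.87 CPM in WT (11.8, 5.62 to 29.9). Ccna2 (cyclin A2) rested on 158 UMIs in Gsdme-KO and 3 in WT, a ratio of 24.8 (8.33 to 121), and Ccnb1 on 90 UMIs in Gsdme-KO and 1 in WT, a ratio of 42.3 (7.41 to 1691). Plk1 had 30 UMIs in Gsdme-KO and 0 in WT, at least 4.70-fold higher with WT set at 3 UMIs over the cluster. Of the chromosomal passenger complex, the kinase Aurkb had a ratio of 11.997 (3.16 to 102), Birc5 (survivin) 11.2 (5.03 to 31.1) and Cdca8 (borealin) 3.72 (1.92 to 8.05).

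The spindle and exit genes of that cluster had the same direction. The kinetochore genes Cenpf and Cenpe had ratios of 19.3 (6.45 to 94.8) and 7.10 (3.76 to 15.1), and Cenpa, the centromeric histone, 3.16 (1.67 to 6.61). Tpx2, which activates Aurora A on the spindle, had 27.2 CPM in Gsdme-KO and 4.55 CPM in WT (5.98, 3.65 to 10.5). The spindle motor Kif11 had a ratio of 4.59 (2.22 to 10.998) and Kif23, a motor of cytokinesis, 6.43 (2.83 to 18.0). The checkpoint kinase Bub1 had 5.46 (2.21 to 17.4), while its relative Bub1b (12 UMIs in Gsdme-KO and 0 in WT) and the spindle kinase Aurka (12 UMIs in Gsdme-KO and 2 in WT) stayed under the minimum. Ube2c had 27.3 CPM in Gsdme-KO and 1.61 CPM in WT (17.02, 7.69 to 46.9), and Cdc20, an activator of the anaphase-promoting complex, a ratio of 7.68 (2.48 to 38.5). Ccnb2 (cyclin B2) had 3.76 (1.94 to 8.15) and Cdca3, a factor of mitotic entry, 3.06 (1.06 to 12.1). The smallest ratio was that of the microtubule binder Nusap1, 1.84 (1.18 to 2.99). Mki67 had 39.2 CPM in Gsdme-KO and 8.03 CPM in WT (4.88, 3.35 to 7.35).

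Fibroblast cluster 0 showed the same direction at smaller ratios. Of its 21 measured G2/M members 18 were at least 1.5-fold higher in Gsdme-KO, against 5.58% of features, and none was 1.5-fold lower. The highest ratios were those of Ccnb1, with 10.2 CPM in Gsdme-KO and 1.37 CPM in WT (7.45, 3.48 to 19.0), Cenpf, with 15.01 CPM in Gsdme-KO and 2.15 CPM in WT (6.99, 3.80 to 14.3), and Ube2c, with 26.2 CPM in Gsdme-KO and 4.49 CPM in WT (5.83, 3.80 to 9.37). The lowest was that of Mki67, at 28.2 CPM in Gsdme-KO and 26.3 CPM in WT (1.07, 0.869 to 1.32). The median log2 ratio of the measured G2/M members was 0.91 in cluster 0 and 2.68 in cluster 1, beside -0.14 and -0.10 over all measured features. Of the G2/M-positive Gsdme-KO fibroblasts, 18 in cluster 0 and 23 in cluster 1, 5.56% and 8.70% carried at least 3 macrophage markers. Of the 841 and 660 other Gsdme-KO cells there 2.26% and 2.88% did. The positive cells had a median depth of 18237.5 UMIs in cluster 0 and 20250 in cluster 1, against 9999 and 10155 in the other cells. In the top 5% of doublet scores were 0% of the positive cells in cluster 0 and 8.70% in cluster 1. These shares rest on very few cells, so no excess is read from them. The part of depth, doublets and carried-over RNA in the result was not tested.

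**Figure D3:**
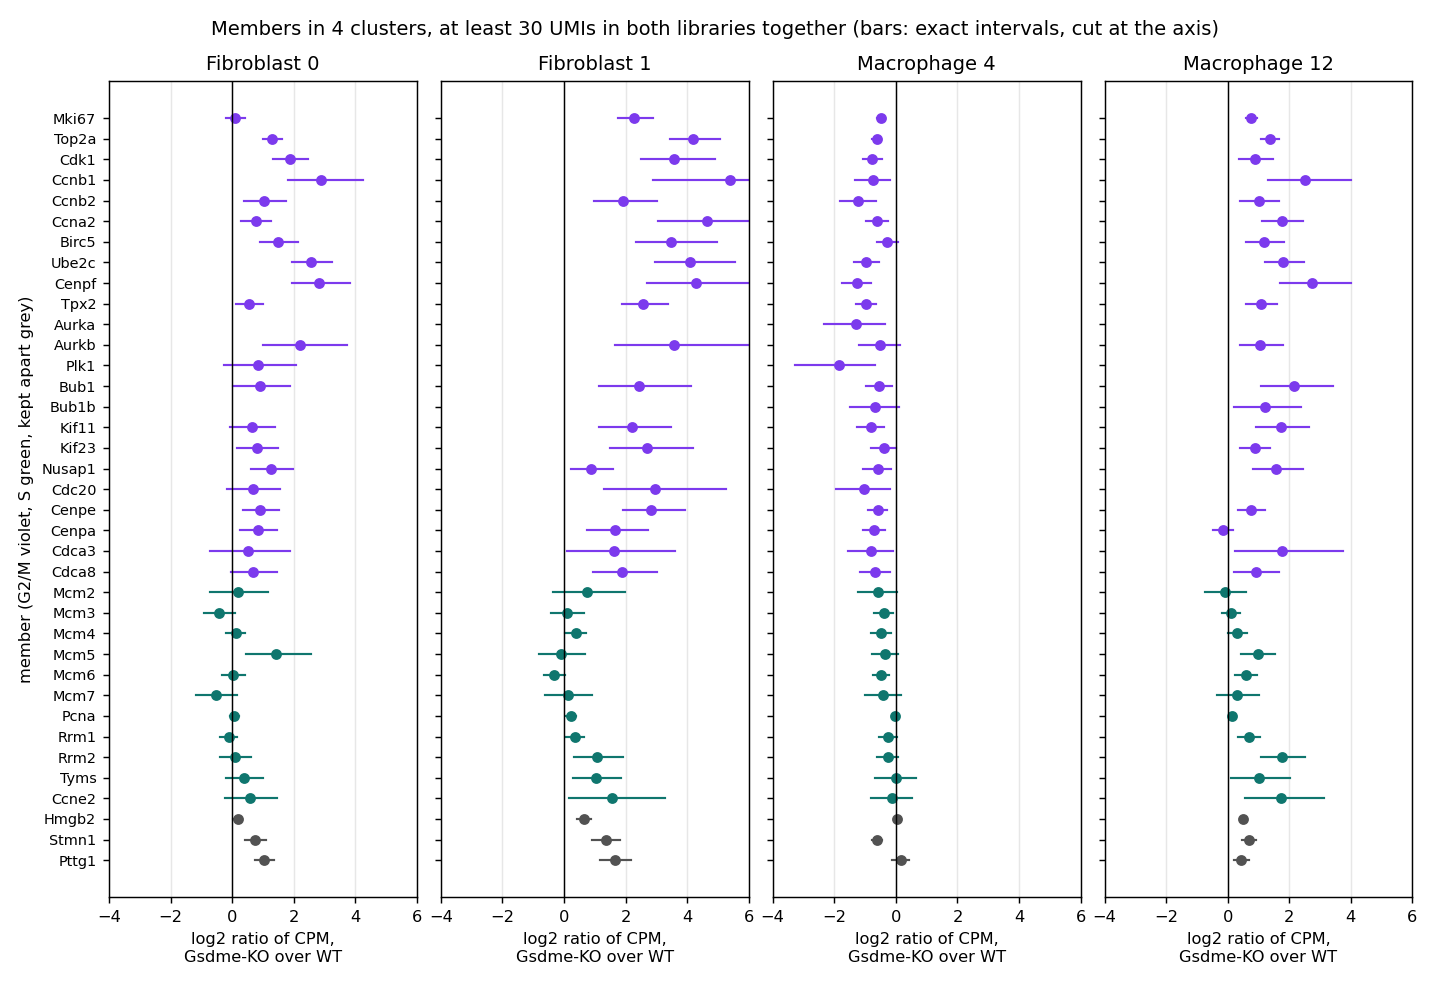
Log2 ratio of CPM, Gsdme-KO over WT, for each member with at least 30 UMIs in both libraries together, in fibroblast clusters 0 and 1 and macrophage clusters 4 and 12, with exact intervals. G2/M genes (violet) lie right of 0 in both fibroblast clusters and left of 0 in macrophage cluster 4 (median -0.70), and S genes (green) lie nearer to 0.

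The macrophage clusters differed from each other. In cluster 12, 19 of 20 measured G2/M members were at least 1.5-fold higher in Gsdme-KO, against 5.57% of features. Gsdme-KO held 10523969 UMIs of this cluster and WT 5308269, and members low in WT, such as Ccnb1 with 68 UMIs in Gsdme-KO and 6 in WT, reached the minimum through Gsdme-KO. Cenpf had 10.1 CPM in Gsdme-KO and 1.51 CPM in WT (6.68, 3.27 to 15.9), Ccnb1 6.46 CPM in Gsdme-KO and 1.13 CPM in WT (5.72, 2.49 to 16.1) and Top2a 58.9 CPM in Gsdme-KO and 22.6 CPM in WT (2.61, 2.14 to 3.20). Bub1 had a ratio of 4.41 (2.12 to 10.6) and Ccna2 3.38 (2.17 to 5.49). Cenpa was the exception, with 19.9 CPM in Gsdme-KO and 22.0 CPM in WT (0.901, 0.715 to 1.14). In cluster 17 the count was 12 of 17, against 10.7% of features, and the positive cells were 16 of 202 Gsdme-KO cells (7.92%, 4.60 to 12.5) and 6 of 138 WT cells (4.35%, 1.61 to 9.22). Of these 16 cells 43.8% carried at least 3 macrophage markers after thinning, against 80.6% of the 186 other Gsdme-KO cells there. In cluster 12 the share was 97.1% of the 35 positive Gsdme-KO cells. What the positive cells of cluster 17 are was not tested. In cluster 5 the count was 8 of 19, against 5.33%, with a ratio of the G2/M sum of 1.30, which turned to 0.811 at Leiden resolution 0.5.

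In macrophage cluster 4 all 23 G2/M members reached the minimum, and 18 were at least 1.5-fold lower in Gsdme-KO, against 8.45% of features. None was 1.5-fold higher, and the median log2 ratio was -0.70, beside -0.08 over all features. Plk1 had 1.77 CPM in Gsdme-KO and 6.38 CPM in WT (0.277, 0.104 to 0.628), Cenpf 12.6 CPM in Gsdme-KO and 30.4 CPM in WT (0.416, 0.298 to 0.571), Ccnb2 8.59 CPM in Gsdme-KO and 19.98 CPM in WT (0.430, 0.285 to 0.634) and Tpx2 26.8 CPM in Gsdme-KO and 52.2 CPM in WT (0.513, 0.407 to 0.641). Birc5 had the highest ratio, 0.827 (0.654 to 1.04). This direction depended on the border of the cluster. With cell cycle genes kept in the clustering, 17 of the 23 positive Gsdme-KO cells and 47 of the 62 positive WT cells of cluster 4 joined a separate cluster of cycling cells. The cluster then most like cluster 4 shared 27.7% of their joint cells with it and had a G2/M ratio of 1.01. The cluster of cycling cells held 87 Gsdme-KO and 98 WT cells, and 86.5% of it was positive. No positive cell of either fibroblast cluster joined it.

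In Gsdme-KO most G2/M UMIs of both fibroblast clusters and of macrophage clusters 4 and 12 came from few cells that held many of the genes at once, and in WT this was so in fibroblast cluster 0 and macrophage cluster 4. With all UMIs counted, at least 10 of the 23 genes were seen in 19 of 684 Gsdme-KO cells and 1 of 375 WT cells of fibroblast cluster 1 and in 16 of 866 Gsdme-KO cells and 3 of 578 WT cells of fibroblast cluster 0. In macrophage cluster 12 they were 29 of 1112 Gsdme-KO cells and 5 of 708 WT cells, and in macrophage cluster 4 they were 19 of 540 Gsdme-KO cells and 44 of 729 WT cells. In neutrophil cluster 7 the most in 1 cell was 3 in Gsdme-KO and 3 in WT. Cells with at least 10 of the genes held 83.9% in Gsdme-KO and 14.8% in WT of the G2/M UMIs of fibroblast cluster 1, and 83.3% in Gsdme-KO and 67.4% in WT of those of cluster 0. They held 61.2% in Gsdme-KO and 32.7% in WT of those of macrophage cluster 12 and 74.9% in Gsdme-KO and 77.6% in WT of those of macrophage cluster 4. In the cells with fewer than 10, the ratio of the G2/M sum was 1.45 (1.21 to 1.75) in fibroblast cluster 1, 1.11 (0.948 to 1.31) in fibroblast cluster 0, 1.19 (1.09 to 1.31) in macrophage cluster 12 and 0.694 (0.630 to 0.764) in macrophage cluster 4.

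**Figure D4:**
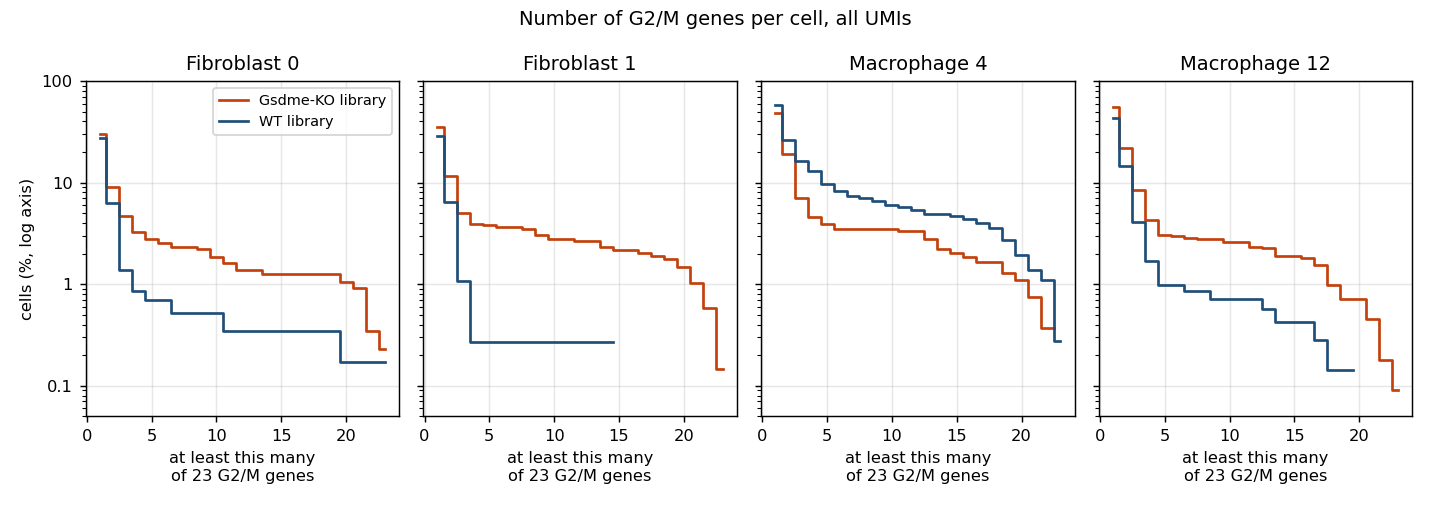
Share of cells (log axis) with at least a given number of the 23 G2/M genes among all their UMIs, in 4 clusters of the Gsdme-KO library (orange) and the WT library (blue). In fibroblast cluster 1 the Gsdme-KO line reaches 23 genes, while the WT line rests on 1 cell beyond 10 genes and ends at 14.

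S phase genes separated the libraries less. Over the 14 clusters the ratio of the S sum ran between 0.621 and 1.38, with an interval above 1 in 3 and below 1 in 4. Fibroblast cluster 0 had 258 CPM in Gsdme-KO and 249 CPM in WT (1.04, 0.968 to 1.11) and fibroblast cluster 1 had 302 CPM in Gsdme-KO and 253 CPM in WT (1.19, 1.10 to 1.29). Neutrophil cluster 7 had 222 CPM in Gsdme-KO and 232 CPM in WT (0.955, 0.826 to 1.11), a level close to that of the fibroblasts. Pcna alone gave 131 CPM in Gsdme-KO and 126 CPM in WT in fibroblast cluster 0. In fibroblast cluster 1 the members found in few cells differed more: Rrm2, the cell cycle subunit of ribonucleotide reductase, had 10.2 CPM in Gsdme-KO and 4.82 CPM in WT (2.12, 1.26 to 3.75), Tyms 9.83 CPM in Gsdme-KO and 4.82 CPM in WT (2.04, 1.21 to 3.62), and Ccne2 rested on 31 UMIs in Gsdme-KO and 5 in WT, a ratio of 2.92 (1.12 to 9.61). The helicase subunits there had ratios between 0.806 (Mcm6) and 1.67 (Mcm2), and Rrm1, the large reductase subunit, 1.29 (1.06 to 1.58). In fibroblast cluster 0 Mcm5 was the 1 S phase member at least 1.5-fold higher, with 5.24 CPM in Gsdme-KO and 1.95 CPM in WT (2.68, 1.35 to 5.92).

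In macrophage cluster 12, 5 of 11 S phase genes were at least 1.5-fold higher in Gsdme-KO, against 5.57% of features, among them Rrm2 with 12.7 CPM in Gsdme-KO and 3.77 CPM in WT (3.38, 2.10 to 5.71), Ccne2 with a ratio of 3.31 (1.49 to 8.70) and Mcm5 with 1.96 (1.34 to 2.93). In macrophage cluster 4 none was, and 1 was at least 1.5-fold lower, against 8.45% of features, which was Mcm2 at a ratio of 0.666 (0.422 to 1.03). The ratio was below 1 there for every S phase gene except Tyms, at 1.00 (0.630 to 1.58), with a median log2 ratio of -0.35. Mcm6 had 46.7 CPM in Gsdme-KO and 65.5 CPM in WT (0.714, 0.596 to 0.852), and Pcna had 349.8 CPM in Gsdme-KO and 359 CPM in WT (0.974, 0.910 to 1.04). Cells with at least 2 of the 11 S genes after thinning were 22 of 683 Gsdme-KO cells (3.22%, 2.03 to 4.84) and 7 of 374 WT cells (1.87%, 0.756 to 3.82) in fibroblast cluster 1, a ratio of 1.72 (0.710 to 4.77). In macrophage cluster 4 they were 28 of 533 Gsdme-KO cells (5.25%, 3.52 to 7.50) and 70 of 707 WT cells (9.90%, 7.80 to 12.3), a ratio of 0.531 (0.329 to 0.833). This ratio was 1.07 with cell cycle genes kept in the clustering, 0.863 without thinning, 0.837 at 2000 UMIs and 0.876 with 1 gene enough. In B cells the S sum was 469 CPM in Gsdme-KO and 754 CPM in WT (0.621, 0.535 to 0.721), but the shares of such cells were 5.52% in Gsdme-KO and 6.37% in WT, so no order is read there.

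Other genes of the same pathways, outside the 37 members, were counted by list. Of 42 further mitosis genes 35 were measured in fibroblast cluster 1, and 31 of them were at least 1.5-fold higher in Gsdme-KO, against 6.69% of features (median log2 ratio 2.19). Genes such as Spc24, with 55 UMIs in Gsdme-KO and 1 in WT, and Kif20a, with 54 UMIs in Gsdme-KO and 1 in WT, were measured through Gsdme-KO alone, so these counts too are a description. The counts were 28 of 36 higher in fibroblast cluster 0, against 5.58% of features (median 0.85), 27 of 36 higher in macrophage cluster 12, against 5.57% (1.03) and 23 of 39 lower in macrophage cluster 4, against 8.45% (-0.70). Prc1, which bundles microtubules of the spindle midzone, had 32.9 CPM in Gsdme-KO and 2.68 CPM in WT (12.3, 6.57 to 25.9) in fibroblast cluster 1 and 18.4 CPM in Gsdme-KO and 5.27 CPM in WT (3.49, 2.34 to 5.40) in macrophage cluster 12. Hmmr, a spindle assembly factor, had 10.9 CPM in Gsdme-KO and 28.5 CPM in WT (0.380, 0.266 to 0.534) in macrophage cluster 4, where Cks2, a partner of CDK1, was higher, with 88.1 CPM in Gsdme-KO and 72.0 CPM in WT (1.22, 1.06 to 1.41). Of 46 replication genes 12 of 35 were at least 1.5-fold higher in fibroblast cluster 1 (median 0.27), 11 of 39 in fibroblast cluster 0 (0.27) and 13 of 43 in macrophage cluster 12 (0.28). In macrophage cluster 4, 12 of 44 were lower (-0.38). The shares over all features are those given for the mitosis genes. Tk1 (thymidine kinase) had 4.79 CPM in Gsdme-KO and 0.536 CPM in WT (8.94, 2.31 to 76.5) in fibroblast cluster 1 and 6.31 CPM in Gsdme-KO and 13.9 CPM in WT (0.453, 0.278 to 0.716) in macrophage cluster 4.

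Of the 10 genes of cell cycle entry and the 16 brakes few passed 1.5-fold in the fibroblasts. In fibroblast cluster 1 no entry gene and no brake was 1.5-fold higher, no entry gene and 1 of 14 measured brakes was 1.5-fold lower (Cdkn1c), against 11.8% of features, and the median log2 ratios were -0.05 and -0.07. In fibroblast cluster 0, 2 of 15 brakes were 1.5-fold lower (Cdkn1c and Cdkn2b), against 13.9%. Over all cells the brakes together had 2864 CPM in Gsdme-KO and 3251 CPM in WT (0.881, 0.874 to 0.888). In macrophage cluster 17 the entry genes together had 458 CPM in Gsdme-KO and 656 CPM in WT (0.698, 0.632 to 0.771), with a ratio of 0.385 (0.301 to 0.491) for Ccnd1. Of the entry genes Ccnd2 (cyclin D2) had 189.5 CPM in Gsdme-KO and 149.99 CPM in WT (1.26, 1.15 to 1.39) in fibroblast cluster 1, Cdk4, its kinase, 92.1 CPM in Gsdme-KO and 70.4 CPM in WT (1.31, 1.13 to 1.51), and the transcription factor gene Myc 434 CPM in Gsdme-KO and 519 CPM in WT (0.837, 0.791 to 0.885). Of the brakes Cdkn1c, which encodes the CDK inhibitor p57, had 107 CPM in Gsdme-KO and 181 CPM in WT (0.593, 0.535 to 0.657) in fibroblast cluster 1 and 53.6 CPM in Gsdme-KO and 97.0 CPM in WT (0.552, 0.488 to 0.626) in fibroblast cluster 0. Cdkn1a, which encodes the CDK inhibitor p21, had ratios of 0.743 (0.689 to 0.802) and 0.731 (0.680 to 0.785) in these clusters. In macrophage cluster 4 Gadd45a, a DNA damage response gene, had 114 CPM in Gsdme-KO and 75.9 CPM in WT (1.501, 1.31 to 1.71) and Ccnd1 (cyclin D1) 85.4 CPM in Gsdme-KO and 120.4 CPM in WT (0.709, 0.621 to 0.808). In macrophage cluster 12, where the G2/M genes stood higher in Gsdme-KO, Ccnd1, Ccnd2 and Myc had ratios of 0.723 (0.626 to 0.837), 0.596 (0.472 to 0.753) and 0.666 (0.529 to 0.840).

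Dendritic cells and lymphocytes rested on fewer cells. In dendritic cluster 10 the G2/M sum was 565 CPM in Gsdme-KO and 398 CPM in WT (1.42, 1.28 to 1.58), and 6 of 12 measured members were at least 1.5-fold higher, against 8.86% of features. Positive there were 15 of 290 Gsdme-KO cells (5.17%, 2.92 to 8.39) and 6 of 231 WT cells (2.60%, 0.959 to 5.57). The share ratio was 1.99 (0.730 to 6.26), an interval that holds 1, so a difference in shares was not detectable. In T cells 6 of 10 were at least 1.5-fold lower in Gsdme-KO, against 9.59%, and in B cells 3 of 6, against 15.3%. The shares of positive cells were 3.68% in Gsdme-KO and 4.68% in WT for T cells and 3.07% in Gsdme-KO and 3.43% in WT for B cells, with ratios of 0.785 (0.312 to 1.90) and 0.894 (0.224 to 3.27), so a difference was not detectable there at this depth. In B cells Mki67 had 43.6 CPM in Gsdme-KO and 218 CPM in WT (0.200, 0.127 to 0.305).

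Mki67 was also present where the other G2/M genes were rare. In neutrophil cluster 7 it made up 53.4% in Gsdme-KO and 54.3% in WT of the G2/M UMIs, and Top2a 1.47% in Gsdme-KO and 2.16% in WT. In monocyte cluster 3 the shares were 59.1% in Gsdme-KO and 61.9% in WT for Mki67 and 4.67% in Gsdme-KO and 4.71% in WT for Top2a. In fibroblast cluster 1 they were 10.9% in Gsdme-KO and 16.4% in WT for Mki67 and 19.0% in Gsdme-KO and 7.65% in WT for Top2a. The level of Top2a in positive cells was 112 times in Gsdme-KO and 104 times in WT that of other cells, and the level of Mki67 17.9 times in Gsdme-KO and 18.4 times in WT. Since these genes chose the positive cells, these values describe the choice.

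The 3 genes kept apart took no part in choosing the positive cells, and Pttg1 differed from the other members. In positive cells it had 39.8 CPM in Gsdme-KO and 122 CPM in WT (0.326, 0.254 to 0.417), from 100 UMIs in 232 Gsdme-KO cells and 199 UMIs in 191 WT cells. In the other cells the order was turned round, with 44.5 CPM in Gsdme-KO and 25.02 CPM in WT (1.78, 1.64 to 1.92). The level of Pttg1 in positive cells was 0.895 times in Gsdme-KO and 4.87 times in WT that of other cells. For Hmgb2 it was 4.86 times in Gsdme-KO and 4.97 times in WT, and for Stmn1, which destabilises microtubules, 25.6 times in Gsdme-KO and 24.8 times in WT. A UMI of Pttg1 was seen in 31.9% of positive cells in Gsdme-KO and 45.5% in WT, and in 22.8% of other cells in Gsdme-KO and 11.2% in WT.

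Within macrophage clusters 4 and 5 the orders crossed in the same way. In cluster 4 positive cells had 49.3 CPM in Gsdme-KO and 134 CPM in WT (0.368, 0.194 to 0.649) and other cells 48.2 CPM in Gsdme-KO and 31.0 CPM in WT (1.56, 1.25 to 1.94). In cluster 5 positive cells had 23.05 CPM in Gsdme-KO and 104 CPM in WT (0.221, 0.0563 to 0.636) and other cells 43.7 CPM in Gsdme-KO and 27.1 CPM in WT (1.61, 1.25 to 2.08). The positive cells were 23 in Gsdme-KO and 62 in WT for cluster 4. For cluster 5 they were 17 in Gsdme-KO and 35 in WT, so its Gsdme-KO level rests on very few UMIs. Over all cells of a cluster Pttg1 was measured in 12 of the 14 clusters, with an interval above 1 in 10 and below 1 in 1. The highest ratio was in neutrophil cluster 7, with 68.1 CPM in Gsdme-KO and 13.5 CPM in WT (5.03, 3.19 to 8.26). Thinned cells of that cluster with a UMI of Pttg1 were 52 of 821 in Gsdme-KO (6.33%, 4.77 to 8.22) and 13 of 863 in WT (1.51%, 0.804 to 2.56). The lowest was in macrophage cluster 17, with 35.2 CPM in Gsdme-KO and 62.2 CPM in WT (0.566, 0.398 to 0.803). Stmn1 had the direction of the G2/M genes, with 34.4 CPM in Gsdme-KO and 13.4 CPM in WT (2.57, 1.89 to 3.55) in fibroblast cluster 1 and 99.5 CPM in Gsdme-KO and 152 CPM in WT (0.653, 0.578 to 0.735) in macrophage cluster 4. Hmgb2 had 94.6 CPM in Gsdme-KO and 60.3 CPM in WT (1.57, 1.35 to 1.83) and 266 CPM in Gsdme-KO and 258 CPM in WT (1.03, 0.953 to 1.12) in the same clusters.

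**Figure D5:**
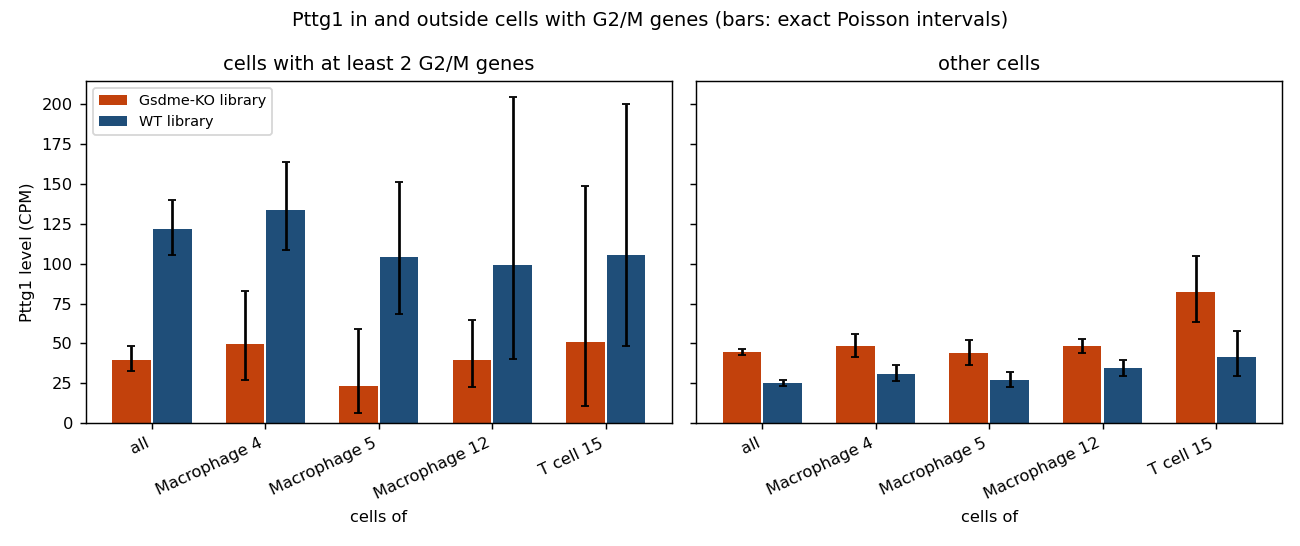
Pttg1 in CPM in cells with at least 2 G2/M genes (left) and in the other cells (right), over all cells and in 4 clusters, in the Gsdme-KO library (orange) and the WT library (blue), with exact Poisson intervals. Over all cells the Gsdme-KO bar is lower on the left (39.8 CPM in Gsdme-KO and 122 CPM in WT) and higher on the right (44.5 CPM in Gsdme-KO and 25.02 CPM in WT).

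S phase genes, which did not choose the positive cells either, were also higher in them. The level of Rrm2 in positive cells was 41.2 times in Gsdme-KO and 61.5 times in WT that of other cells, that of Ccne2 14.2 times in Gsdme-KO and 31.4 times in WT, that of Mcm5 10.8 times in Gsdme-KO and 12.3 times in WT and that of Pcna 2.58 times in Gsdme-KO and 2.67 times in WT. Ccnd1, whose cyclin acts before S phase, had 79.2 CPM in Gsdme-KO and 193 CPM in WT (0.410, 0.342 to 0.492) in positive cells and 57.1 CPM in Gsdme-KO and 76.5 CPM in WT (0.747, 0.708 to 0.788) in the others. The positive cells of the libraries came from the clusters in different shares, and within macrophage cluster 4 Ccnd1 had 95.2 CPM in Gsdme-KO and 171 CPM in WT (0.558, 0.353 to 0.852) in positive cells.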

How the data were processed

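Per the labels, dissociated abdominal aorta was run as single cells on BD Rhapsody. Per the submitters' processing notes CASAVA 1.8 and STARsolo were used with genome build mm10. The deposited values are whole-number counts per gene and barcode, read here as UMIs from the platform. The cell filter behind them is not stated; each deposited barcode holds at least 500 UMIs.

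Cells with at least 500 UMIs, 250 genes and at most 25% mitochondrial UMIs were kept. Both libraries were clustered together with scanpy 1.11.5 (1992 of 2000 variable genes after removing cell cycle genes, Leiden resolution 1). Scrublet marked 0 cells in either library, so it did not work as a caller, and all cells were used. Counts were summed per cluster and library and given as CPM. Ratios carry conditional binomial intervals, levels Poisson and shares Clopper-Pearson intervals. A gene counts as measured with at least 30 UMIs in both libraries together, and as called at 1.5-fold. Cells were thinned without replacement to 1000 UMIs. The interval code was tested on simulated counts. TMM factors came from edgeR 4.0.16, and median-of-ratios factors from the genes counted in both libraries.

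The members and lists were chosen with earlier results of these data known. All 37 members are named; pathway genes are those whose ratio interval lay farthest from 1, at most 4 each way per list and cluster, of which some are printed. Alternatives were a stricter cell filter, doublet scores, other clusterings, other thinning, other numbers of genes per positive cell, other scaling, means over cells and leaving out Mki67 or Pcna.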

Additional observations from a re-analysis of the deposited data

How the results depend on the processing

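No paired analysis was possible because each group has 1 library. For all cells, fibroblast clusters 0 and 1 and macrophage clusters 4 and 12, the G2/M-positive share stayed within its interval under 47 of 50 alternatives, the share with S genes under 46 of 51, the G2/M sum under 25 of 47 and the S sum under 34 of 47. A wide interval keeps more alternatives, and the share intervals are wide, such as 2.05 to 519 for the G2/M-positive share ratio of fibroblast cluster 1. These counts therefore do not show that shares are more stable than sums. Another draw of the thinning was chosen after seeing the data. For these cells and clusters, the alternatives that left the interval or turned the direction follow as ratios of Gsdme-KO over WT. For the other clusters only those follow that turned a direction whose interval excluded 1. There a further 34 of 150 alternatives of the G2/M sum and 16 of 150 of the S sum left the interval and are not listed. Among them was the G2/M sum of macrophage cluster 17 with cell cycle genes kept in the clustering. The cause was not tested. With cell cycle genes kept in the clustering the G2/M sum ratio was 2.48 in fibroblast cluster 0, 3.44 in fibroblast cluster 1, 1.04 in monocyte cluster 3, 1.01 in macrophage cluster 4, 0.894 in platelet cluster 8 and 1.41 in macrophage cluster 12, the S sum ratio was 0.989 in macrophage cluster 4, 1.06 in macrophage cluster 12 and 0.959 in macrophage cluster 17, the G2/M-positive share ratio was 1.06 in macrophage cluster 4, and the S-gene share ratio was 1.07 in macrophage cluster 4. At Leiden resolution 0.5 the G2/M sum ratio was 3.12 in fibroblast cluster 0, 3.12 in fibroblast cluster 1, 1.45 in monocyte cluster 3, 0.811 in macrophage cluster 4 and 0.811 in macrophage cluster 5, and the S sum ratio was 1.11 in fibroblast cluster 0 and 0.980 in unnamed cluster 11. At Leiden resolution 2 the G2/M sum ratio was 1.42 in fibroblast cluster 0, 1.24 in unnamed cluster 11 and 2.46 in macrophage cluster 12, the S sum ratio was 0.817 in macrophage cluster 4, and the G2/M-positive share ratio was 1.02 in fibroblast cluster 0. With TMM factors the G2/M sum ratio was 1.07 in all cells, 2.34 in fibroblast cluster 0 and 0.677 in macrophage cluster 4, and the S sum ratio was 0.991 in all cells, 1.13 in fibroblast cluster 0 and 0.932 in macrophage cluster 4. With median-of-ratios size factors the G2/M sum ratio was 1.07 in all cells, 2.35 in fibroblast cluster 0 and 0.679 in macrophage cluster 4, and the S sum ratio was 0.991 in all cells, 1.14 in fibroblast cluster 0 and 0.934 in macrophage cluster 4. As a mean over cells of each cell share of UMIs the G2/M sum ratio was 2.49 in fibroblast cluster 0, 5.03 in fibroblast cluster 1, 0.583 in macrophage cluster 4 and 1.36 in unnamed cluster 11, and the S sum ratio was 0.984 in all cells, 1.01 in dendritic cluster 10 and 1.02 in T cells. Without Mki67 the G2/M sum ratio was 1.12 in all cells, 2.38 in fibroblast cluster 0 and 2.19 in macrophage cluster 12. Without Pcna the S sum ratio was 0.773 in macrophage cluster 4 and 1.44 in macrophage cluster 12. Without thinning the G2/M-positive share ratio was 1.805 in fibroblast cluster 1, and the S-gene share ratio was 0.863 in macrophage cluster 4. Thinned to 2000 UMIs the S-gene share ratio was 0.837 in macrophage cluster 4. With at least 1 gene per cell the S-gene share ratio was 0.876 in macrophage cluster 4. With at least 3 genes per cell the S-gene share ratio was 7.02 in macrophage cluster 12. Without the top 5% of doublet scores the G2/M sum ratio was 8.99 in fibroblast cluster 1. Under other clusterings a value belongs to the most similar cluster, which shared between 21.9% and 97.1% of the joint cells. Shares from few positive cells, such as 1 WT cell in fibroblast cluster 1, limit the precision, and nothing here measures the spread between animals.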
